A study of Mus musculus with 24 samples.

Results

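The mitochondrial ribosomal protein genes are the nuclear genes whose names begin with Mrpl or Mrps and a digit. They were chosen by that name among the protein-coding genes of the table, which gave 78 of 45237 genes, 49 named Mrpl and 29 named Mrps. Of these, 77 passed the filter on low counts and are among the 17097 genes tested. The exception, Mrpl53, had 51 counts over all libraries and none in 5 of them, and 88% of its exonic bases lie in exons of other genes (Ccdc142os and Gm42688).

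RNA of NK cells sorted from the spleen was sequenced to ask how these cells change as lymphoma grows in C57BL/6J wild-type mice (females of 7 to 9 weeks, per the general methods of the study). Untreated control mice gave 4 libraries. RMA is a mouse lymphoma line that keeps MHC class I. Mice given RMA cells intravenously gave 3 libraries each at day 2 (RMA early), day 4 (RMA intermediate) and day 9 (RMA late). RMA-KR is a clone of RMA, obtained by limiting dilution, in which B2m was knocked out, so that MHC class I is lost, and which carries the NKG2D ligand Rae1-β. Cells of both lines expressed ZsGreen, per the text of the study. Mice given RMA-KR cells by the same route gave 3 libraries at day 2 (RMA-KR early), 5 at day 7 (RMA-KR intermediate) and 3 at day 14 (RMA-KR late). The intermediate and late stages of the models therefore differ in day as well as in tumor. The labelled cell type was checked by its markers: the summed level of 10 NK cell markers, of which Gzma was the most abundant, was between 21470 and 38590 normalized CPM (counts relative to the scaled library total) in the 24 libraries.

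Mitochondria make their own small set of respiratory chain proteins on ribosomes that differ from those of the cytosol. The RNA of the mitochondrial ribosome is made inside the organelle, whereas all of its proteins are encoded in the nucleus, made in the cytosol and imported. Some of these proteins have a counterpart in bacterial ribosomes and others are found only in mitochondria; activated lymphocytes are known to increase their mitochondrial content and translation as they grow.

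By structure, 30 of the 78 genes encode large subunit proteins with a bacterial homologue and 21 encode large subunit proteins specific to mitochondria. The small subunit has 16 bacterial homologues and 10 specific proteins. Names and places differ in a few cases, since Mrps18a and Mrps30 encode large subunit proteins. Mrps36 keeps its name from an early assignment, but its product is a component of the alpha-ketoglutarate dehydrogenase complex and not of the mitochondrial ribosome. The genes lie on 17 chromosomes. Exons of 45 of them share no base with another gene, while Mrpl53, Mrps34 (77.8% shared with Mapk8ip3 and Nme3) and Mrps25 (69.8% shared with Nr2c2) share over 50% of their exonic bases. For Mrpl53 all of the shared bases are on its own strand, for Mrps34 37% of its bases are shared there, and for Mrps25 none. Counts of Mrps25 are uncertain because the strand setting of the counting is not given in the sources used here. Those of Mrpl53 and Mrps34 are uncertain whatever the setting, since both share bases on their own strand. Those of Mrps36, Mrpl23 and Mrpl48 are uncertain because near-identical pseudogene copies are in the table.

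Libraries held between 5138651 and 14863500 counts, with a median of 10489204. The smallest was control 1. Members took between 0.225% and 0.367% of all counts in a library, from 11573 counts in control 1 to 44023 in RMA-KR late 2. All levels are CPM of library totals scaled by trimmed mean of M values (normalized CPM). Of the 1848 values that 77 genes gave over 24 libraries, 13 were under 20% of the gene's own mean, and 6 of these 13 were in RMA early 1. Mrpl1, for example, was at 0.0964 normalized CPM in RMA-KR late 3 and between 14.9 and 38.5 in the other libraries, so that single values of single genes could fall out of a library. The common biological coefficient of variation over all genes was 0.852, and those of the members ran from 0.174 to 0.833 with a median of 0.329.

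Several libraries stood apart from the rest of their group. The summed level of 9 immediate early and stress genes, with Junb the most abundant, was 1141 in control 4 and 1079, 1186 and 1050 in RMA-KR intermediate 3, 4 and 5, against 5224 to 8591 normalized CPM in the other controls, the early groups, RMA-KR intermediate 1 and 2 and RMA-KR late. The 6 libraries of RMA intermediate (4188, 4158 and 4577) and RMA late (4081, 3677 and 4700) lay between these sets, so that this sum also differed between groups. These 4 also had the most genes with a count, 27820, 24676, 26285 and 24621, where the others had 15263 to 24234. Their summed NK cell markers were 25500, 22830, 22810 and 21470 normalized CPM, the 3 RMA-KR values being the lowest of the series, where RMA-KR intermediate 1 and 2 were at 34850 and 36260. In the same 4 libraries the summed level of T cell markers was 44.46, 54.71, 63.46 and 63.22, the 3 highest values of the series being the RMA-KR ones. Where a single library was left out, the filter on low counts was applied again, so that between 16490 and 20280 genes were tested. The same fits with the 17097 genes kept, an alternative added after seeing the data, are given beside them for calls and counts. Values without these 4 libraries, a choice made after seeing the data, are given with each comparison.

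Per kilobase of transcript, the 77 genes spanned 4.45 to 153 normalized CPM with a median of 33.8, against a median of 5.83 for all genes tested, 53.3 for 80 cytosolic ribosomal protein genes and 104 for 79 nuclear genes of oxidative phosphorylation subunits. The highest levels per kilobase were those of Mrpl4 (153), which encodes a conserved protein of the large subunit, Mrpl18 (139), which takes part in the import of 5S rRNA, Mrpl58 (131), a peptidyl-tRNA hydrolase built into the large subunit, Mrps23 (99.7) and Mrpl30 (93.4). The lowest were those of Mrpl1 (7.11), Mrps34 (6.28), Mrps36 (5.21) and Mrpl23 (4.45), with Mrps31 and Mrpl47 both at 8.69. Large subunit genes of bacterial type had a median of 42 and those specific to mitochondria 33.2, while the small subunit classes had medians of 30 and 17.2 normalized CPM per kilobase. Within each class the levels per kilobase were far apart, from 8.94 to 80.4 in the narrowest, the bacterial homologues of the small subunit, and from 4.45 to 153 in those of the large subunit.

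Over the 24 libraries the coefficient of variation of a gene's normalized CPM ran from 16.8% in Mrps17 to 130% in Mrpl23, with a median of 30.3%. Mrpl23 owed its value to RMA-KR intermediate 4 and 5, at 19.9 and 8.44 normalized CPM, against 5.97 or less elsewhere. Pearson correlations of log2 normalized CPM over the 24 libraries, given as a description, had a median of 0.28 over 2926 pairs of genes, and 84.1% of pairs were above 0. After the group means were taken out the median was 0.18. The points share depth and group, and neither value was tested. Mrpl12, whose product forms the flexible stalk of the large subunit, and Mrpl18 were on average the most like the other members (mean r 0.46 each). The member nearest to Mrpl12 was Mrpl40 (0.87). Mrps18a (-0.09), Mrpl9 (-0.07) and Mrpl24 (-0.05) were the least like the rest.

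In the controls, the summed level of the 77 genes was 2138, 2852, 2741 and 2611 normalized CPM. It was 2293, 2755 and 2413 in RMA early, 3211, 3114 and 3208 in RMA intermediate and 3716, 3921 and 2900 in RMA late. All 6 libraries of the later RMA stages thus lay above all 4 controls, with RMA late 3 only slightly above control 2, while RMA early lay within the control range; with DESeq2's size factors or a stricter filter the highest RMA early value (2864 and 2849) passed the highest control (2749 and 2774). RMA-KR early gave 2262, 2735 and 2675, RMA-KR intermediate 2826, 3047, 2966, 2935 and 3133, and RMA-KR late 2947, 3093 and 2460 normalized CPM. The RMA-KR intermediate libraries overlapped the controls in 1 library and those of RMA-KR late in 1. The overlap at RMA-KR intermediate was absent with DESeq2's size factors (lowest value 2758) and the stricter filter (2791). The 4 libraries low in immediate early genes did not stand apart here: control 4 was inside the range of the other controls, and RMA-KR intermediate 3 to 5 were close to RMA-KR intermediate 1 and 2.

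**Figure D1:**
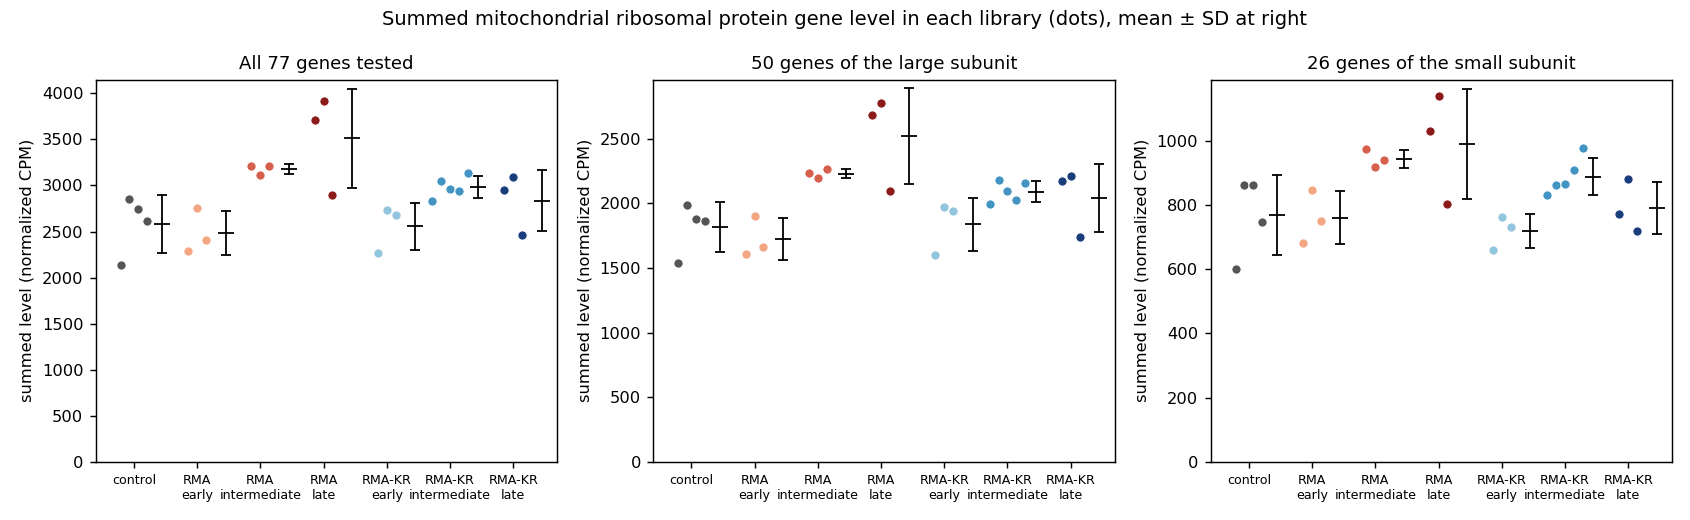
Summed level of mitochondrial ribosomal protein genes (vertical axis, normalized CPM) in each of the 24 libraries (dots) by group (horizontal axis), for all 77 genes and for each subunit; black marks give the mean and SD of a group. For all 77 genes, RMA intermediate libraries sit between 3114 and 3211 and RMA late libraries between 2900 and 3921, above the controls at 2138 to 2852. For the small subunit, RMA late overlaps the controls.

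As means, the sum was 2586 ± 314 (SD, n = 4) in controls, 3178 ± 55 (n = 3) in RMA intermediate and 3512 ± 540 (n = 3) in RMA late, which is 1.23 and 1.36 times the control mean. In RMA-KR intermediate it was 2981 ± 116 (n = 5) and in RMA-KR late 2834 ± 332 (n = 3), or 1.15 and 1.1 times the control mean. The early groups were at 0.962 (RMA) and 0.989 (RMA-KR) times, but at 1.01 and 1.02 with DESeq2's size factors and 0.996 and 1.01 with the stricter filter, so that no direction is given for them. At the RMA late stage the large subunit sum was 1.39 and the small subunit sum 1.29 times its control mean. At the RMA intermediate stage both were at 1.23. The large subunit sum was 2095 to 2778 normalized CPM at RMA late, above the controls at 1535 to 1986. The small subunit sum was 803.1 to 1139 there and overlapped the controls, at 600.5 to 863.5. These sums are descriptions and carry no test. In sorted bulk samples, a larger share of cells rich in these transcripts and more transcript in each cell cannot be told apart.

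Each comparison with controls used the same 4 control libraries, so that these comparisons are not independent of each other. At RMA late, 71 of the 77 genes had a log2 fold change above 0 against control, with a median of 0.49, whereas the median over all 17097 genes tested was -0.18 and 40.7% of them were above 0. Relative to the median of all genes the members stood 0.67 higher. Among the 9484 genes with a mean of at least 5 CPM, a closer frame for members whose median level was 35.5 CPM, the median was -0.04. The range was wide, from -0.38 to 1.82. Groups did not overlap for 23 of the 77, all with the higher values in RMA late, which is 29.9% of the members, and the same held for 9.24% of all genes tested and 14.5% of those 9484. The quasi-likelihood test of edgeR, with p adjusted over the whole table by the method of Benjamini and Hochberg, called 2 members higher and none lower at an adjusted p under 0.05. That is 2.6% of the members, and 2.14% of all genes tested were called higher, so that the share of members called was near that of all genes. At an unadjusted p under 0.05 there were 18 members, all with positive values (23.4%, against 14% of all genes and 20.8% of those 9484). DESeq2 called 14 (18.2%, against 6.05% of all genes). Here and in the later comparisons, shares called are given against all genes of the fit and not against those 9484.

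Within the roles, 43 of 46 bacterial homologues were above 0 (median 0.52) and 27 of 30 mitochondria-specific proteins (median 0.29). All 26 small subunit genes were above 0 at RMA late, with a median of 0.35, and 44 of the 50 large subunit genes, with a median of 0.52. Both called genes encode large subunit proteins. No test of a difference between the classes was made.

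Mrpl20, which encodes the homologue of a bacterial protein of early large subunit assembly, was at 22.2, 35.3, 40.6 and 25.6 normalized CPM in controls, 38.3, 28.5 and 31.5 in RMA early, 57.3, 51.6 and 54.7 in RMA intermediate and 84.8, 80.4 and 57.4 in RMA late. In RMA-KR mice it was at 26.5, 24 and 28.9 early, 56.2, 47.1, 44.3, 40.5 and 44 at the intermediate stage, and 43.8, 49 and 33.6 late. All RMA intermediate and late libraries exceeded all controls, and among RMA-KR libraries the highest control value of 40.6 was passed by all but RMA-KR intermediate 4 and RMA-KR late 3 after the early stage. At RMA late the gene rose by a log2 fold change of 1.26 ± 0.24 (SE) with an adjusted p of 0.00441 by edgeR, in 3 of 3 libraries. It kept the call in 22 of 23 alternatives, the exception being the table without a filter on low counts (adjusted p = 0.107; range over the alternatives 7.13e-07 to 0.107).

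Mrpl58 encodes a peptidyl-tRNA hydrolase that frees stalled chains. It was steady in controls at 65.2, 66.6, 70 and 70.1 normalized CPM, was at 65.1, 68.3 and 54.1 in RMA early and 68.9, 74.1 and 80.8 in RMA intermediate, and reached 115, 113 and 96.6 in RMA late. The RMA-KR libraries were at 79.8, 73.4 and 92.6 early, 76.1, 73.6, 61.4, 73 and 61.4 intermediate and 90.7, 101 and 92.9 late. RMA-KR early and both late groups lay above all controls. Against controls it was higher in 3 of 3 RMA late libraries, by 0.67 ± 0.16 (log2, SE) with an adjusted p of 0.0224 by edgeR. This call was kept in 9 of 23 alternatives (adjusted p 5.13e-05 to 0.574). It was kept without RMA late 3 (0.0234) and lost without control 1 (0.0707), control 2 (0.0692), control 3 (0.0567), control 4 (0.0658), RMA late 1 (0.141) or RMA late 2 (0.167). With the same genes tested it was kept without control 3 too (0.0487). At RMA-KR late the difference was 0.48 ± 0.16 and missed the threshold (adjusted p = 0.188).

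**Figure D2:**
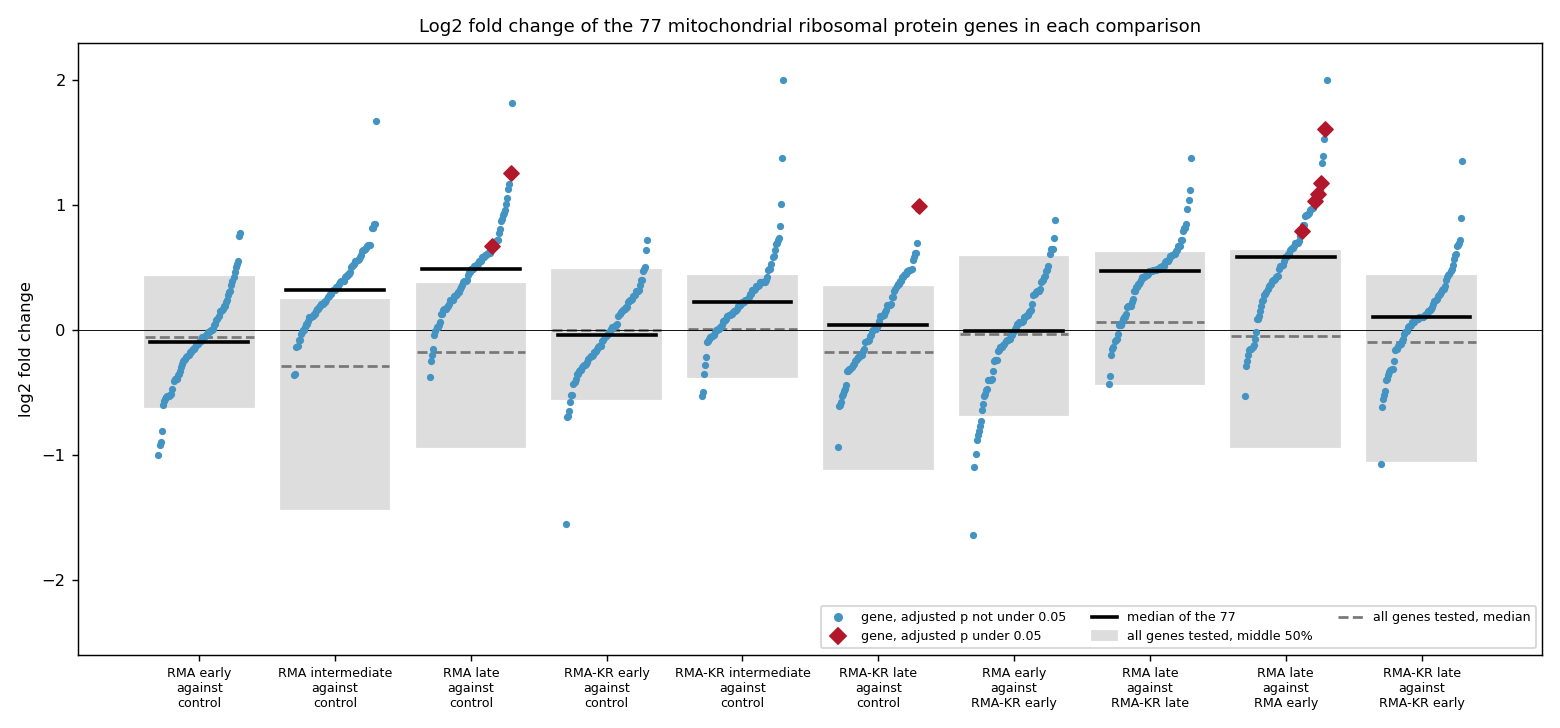
Log2 fold change (vertical axis) of each of the 77 genes (points, sorted within a comparison) in 10 comparisons (horizontal axis); red diamonds passed an adjusted p under 0.05, black bars are the members' medians, and grey boxes with dashed lines give the middle 50% and the median of all 17097 genes tested. The members' medians were 0.32, 0.49 and 0.58 in RMA intermediate and late against control and RMA late against RMA early, where the medians of all genes were -0.29, -0.18 and -0.05.

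The promoters of called genes are shown because these members passed the test at a late stage; 69 of the 78 members have a promoter in RefSeq's table (build GRCm38.p6), and of the 6 called genes Mrpl10, Mrpl20, Mrpl30 and Mrpl58 do. Each stretch holds the 150 bases before the start in RefSeq, 5′ to 3′; for Mrpl10 the last 22 of these lie inside the gene as annotated by Ensembl. Capitals mark the letters of an ETS core (CCGGAAG), an E-box (CACGTG) or a part of the NRF1 site (TGCGCA), searched on both strands.
Mrpl10, chr11:97041432-97041581, + strand: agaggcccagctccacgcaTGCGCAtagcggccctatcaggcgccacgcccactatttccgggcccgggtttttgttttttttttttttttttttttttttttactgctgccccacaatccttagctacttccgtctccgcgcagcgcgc
Mrpl20, chr4:155802728-155802877, + strand: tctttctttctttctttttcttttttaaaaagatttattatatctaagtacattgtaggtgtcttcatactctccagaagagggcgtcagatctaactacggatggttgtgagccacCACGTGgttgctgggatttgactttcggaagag
Mrpl30, chr1:37890327-37890476, + strand: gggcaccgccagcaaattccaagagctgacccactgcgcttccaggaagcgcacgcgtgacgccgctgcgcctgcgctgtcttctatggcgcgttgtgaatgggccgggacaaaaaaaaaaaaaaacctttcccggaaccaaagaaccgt
Mrpl58, chr11:115403602-115403751, + strand: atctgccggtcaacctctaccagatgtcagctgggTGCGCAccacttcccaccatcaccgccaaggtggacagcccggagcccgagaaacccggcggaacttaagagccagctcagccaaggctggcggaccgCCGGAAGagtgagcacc
Mrpl10 and Mrpl58 hold 1 partial NRF1 site each in these stretches, Mrpl58 holds 1 ETS core, Mrpl20 holds 1 E-box and Mrpl30 none of the 3. Over windows of 300 bases, from 250 before the start, the ETS core was in 25 of 69 member promoters (36.2%) and in 8.86% of all 32851 promoters, or 17% of those of genes tested here. The partial NRF1 site was in 21 (30.4%), against 7.76% and 13.4%, and the E-box in 5 (7.25%), against 7.15% and 9.5%. In 28 of the 69 none of the 3 was found. These are matches of letters and were not tested; no motif overlaps another among those printed.

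At RMA intermediate, 68 of 77 members had a log2 fold change above 0 against control (median 0.32), while over all genes the median was -0.29 and 36.6% were above 0. Among the 9484 genes with a mean of at least 5 CPM the median was -0.02. Groups did not overlap for 20 members, all higher in RMA intermediate (26%), against 10.2% of all genes tested and 16.4% of those 9484. Without the 4 libraries low in immediate early genes the members' median was 0.37 and the median of all genes -0.22. None of the members was called by edgeR, and 2.35% of all genes tested were called in either direction; 10 members had an unadjusted p under 0.05 (13%, against 15.9% of all genes) and DESeq2 called 4 (5.19%, against 5.49%), shares near those of all genes or below. The 3 smallest p-values belonged to Mrpl20 (0.82 ± 0.24, adjusted p = 0.0806), Mrpl18 (0.82 ± 0.27, adjusted p = 0.135) and Mrps28 (1.67 ± 0.57, adjusted p = 0.153). Mrps28, a small subunit protein related to bacterial S1, was at 2.59, 5.3, 5.16 and 8.12 normalized CPM in controls, and at 19.7, 15.3 and 15.9 in RMA intermediate, 19.9, 26.4 and 10.2 in RMA late. Its groups did not overlap, and its low level went with a large error.

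The libraries of these groups also differed in other lists. The summed level of 15 proliferation genes, with Mcm6 the most abundant, was 1179 to 1406 normalized CPM in controls, 5230, 7963 and 6208 in RMA intermediate, 5443, 6627 and 3380 in RMA late and 3182, 5538 and 2983 in RMA-KR late. All 15 were called higher at RMA intermediate, 11 of 15 at RMA late and 8 of 15 at RMA-KR late. Of all genes tested, 2.35% were called in either direction at RMA intermediate. The shares called higher were 2.14% at RMA late and 0.889% at RMA-KR late. RMA late 3, with the lowest member sum of its group, also had the lowest proliferation sum of its group. The same held for RMA-KR late 3. By contrast, RMA intermediate 2 had the lowest member sum but the highest proliferation sum of its group. The immediate early and stress sum was lower in all 6 RMA intermediate and late libraries (3677 to 4700 normalized CPM) than in controls 1 to 3 (6344, 6902 and 7645), and its part in the members' values was not tested. The summed NK cell markers were at 32880 to 38590 normalized CPM in RMA late and 25070 to 35600 in controls. Their mean was 1.08 times the control mean at RMA intermediate and 1.23 times at RMA late, and its part was not tested. The part of proliferation was not tested either; with the 15 genes left out of the table before scaling, an alternative chosen after seeing the data, the members' median was 0.37 at RMA intermediate and 0.52 at RMA late, with 2 called at RMA late.

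The comparison of RMA late with RMA early shares the RMA late libraries with the one against control and uses no control. In it, 66 of 77 members were above 0 (median 0.58, all genes -0.05), 21 did not overlap with the higher values at the late stage (27.3%, against 11.5% of all genes tested and 16.6% of those with a mean of at least 5 CPM) and 1 with the lower. Here 5 members were called higher by edgeR and none lower, 6.49% of the members against 2.18% of all genes tested called higher. There were 25 members at an unadjusted p under 0.05 (32.5%, against 17.2% of all genes), and DESeq2 called 14 (18.2%, against 7.72%). All 5 encode large subunit proteins.

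Mrpl58 (0.79 ± 0.18 SE, adjusted p = 0.0158), Mrpl20 (1.18 ± 0.26, adjusted p = 0.0166) and Mrpl30 (1.09 ± 0.24, adjusted p = 0.0166) were called in this comparison, as were Mrpl54 (1.61 ± 0.4, adjusted p = 0.033) and Mrpl15 (1.03 ± 0.28, adjusted p = 0.0489), each higher in 3 of 3 libraries. Mrpl30, a bacterial-type protein of the large subunit, was at 48.3, 29.7 and 44.7 normalized CPM in RMA early and 101, 85.8 and 74.7 in RMA late, with controls at 57.7, 59.6, 50.8 and 65.1. Mrpl15 was at 18.5, 37.9 and 36.1 in RMA early and 60.1, 80.5 and 48.7 in RMA late, with controls at 38.1, 50, 52.4 and 42.9. Mrpl54, a protein specific to mitochondria, was at 6.4, 7.94 and 11.2 in RMA early and 33, 29.2 and 15.9 in RMA late, with controls at 8.69, 13.8, 11.4 and 17.8. For Mrpl30 and Mrpl15 all RMA early libraries were below all controls, so that low early values add to the difference between stages. Without RMA late 1 or RMA late 2 edgeR called no member (0.659% and 0.457% of all genes), with 20 and 14 at an unadjusted p under 0.05 (26% and 18.2%, against 11% and 11.1% of all genes). Without RMA late 3 it called 8 (10.4%, against 2.91%). Without RMA early 1 it called Mrpl30 and Mrps14, without RMA early 2 Mrpl4 and Mrpl58, and without RMA early 3 Mrpl30 and Mrpl54, each 2.6% of members against 0.508%, 1.41% and 3.29% of all genes. With the same genes tested the counts were 0 and 0 without RMA late 1 and 2. The unadjusted counts there were 18 and 16, given without the share of all genes in these fits. Without RMA late 3 the count called was 11 (14.3%, against 3.71% of all genes). It was 4, 3 and 6 without RMA early 1, 2 and 3 (5.19%, 3.9% and 7.79%, against 0.86%, 2.02% and 4.35%).

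The count at RMA late against control was 7 without RMA late 3 (9.09%, against 2.9% of all genes in that fit), and 1 without RMA late 1, RMA late 2 or any of the 4 controls (1.3%, against 0.711% to 2.01%). Mrpl20 was the member called in each of these fits with 1 call. With the same genes tested these counts were the same, apart from 2 (Mrpl20 and Mrpl58) without control 3 (2.6%, against 1.97%); 3.52% of all genes were called without RMA late 3. The median was 0.31 without RMA late 2 and 0.62 without RMA late 3. Without the 4 libraries low in immediate early genes, Mrpl20 alone was called at RMA late against control (1.3%, against 1.68% of all genes), 3 members (Mrpl20, Mrpl30 and Mrpl58) were called against RMA early (3.9%, against 2.24%), and the medians were 0.46 and 0.54.

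**Figure D3:**
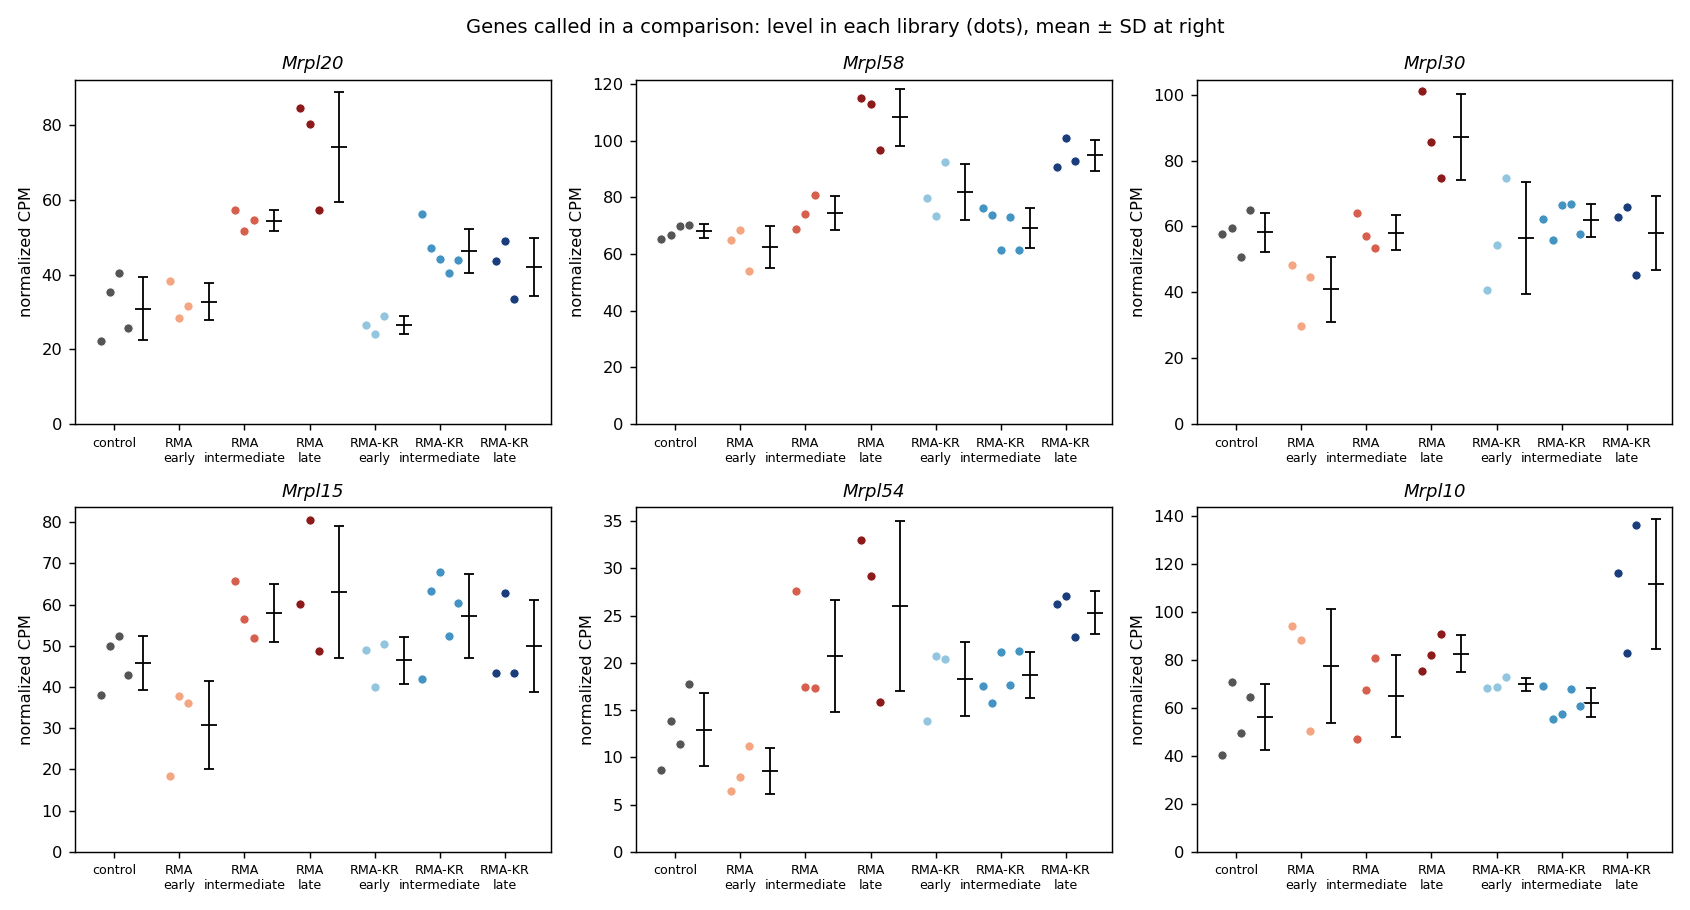
Level (vertical axis, normalized CPM) of the 6 genes called in a comparison in each of the 24 libraries (dots) by group (horizontal axis), with the mean and SD of a group in black. Mrpl20 was at 84.8, 80.4 and 57.4 in RMA late and at most 40.6 in controls, and Mrpl10 was at 116, 82.7 and 136 in RMA-KR late and at most 70.5 in controls.

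At RMA-KR intermediate, 64 of 77 members were above 0 against control (median 0.22, all genes 0.01). The groups did not overlap for 5 members, all higher (6.49%, against 1.33% of all genes tested). The share among genes with a mean of at least 5 CPM is not given here and may be higher, as it was at RMA late. No member was called by edgeR, where 0.0175% of all genes were called in either direction; 6 had an unadjusted p under 0.05 (7.79%, against 5.91% of all genes) and DESeq2 called 0 (0.357% of all genes). Mrpl20 (0.58 ± 0.22), Mrps28 (1.38 ± 0.52) and Mrpl16 (0.64 ± 0.26) had the smallest p-values, with adjusted p of 0.706, 0.724 and 0.747. Without the 4 libraries low in immediate early genes the median was 0.19 and the count called 0; without control 1 the median was 0.14, and leaving out any other library gave 0.18 to 0.27.

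At RMA-KR late the members divided nearly evenly, with 43 above 0 and 34 below (median 0.04, all genes -0.18). Groups did not overlap for 10 members with the higher values in RMA-KR late (13%, against 5.88% of all genes tested) and for 1 with the lower. Again the share among genes with a mean of at least 5 CPM is not given and may be higher. The median was -0.08 without RMA-KR late 2, -0.02 without control 1, 0.17 without control 2, 0.13 without control 3, 0.08 without control 4 and 0.19 without RMA-KR late 3, and it was 0.13 without the 4 libraries low in immediate early genes. Of the members, 1 was called higher and none lower (1.3%, against 0.889% of all genes called higher); 5 had an unadjusted p under 0.05 (6.49%, against 14.2% of all genes) and DESeq2 called 3 (3.9%, against 3.89%). These shares were near those of all genes or below.

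That gene was Mrpl10, which encodes the base of the large subunit stalk. It was at 40.1, 70.5, 49.5 and 64.6 normalized CPM in controls and at 116, 82.7 and 136 in RMA-KR late. RMA late gave 75.2, 81.8 and 90.7, RMA early 93.9, 88.3 and 50.2, RMA intermediate 46.8, 67.4 and 80.7, RMA-KR early 68, 68.5 and 72.7, and RMA-KR intermediate 69.1, 55.3, 57.5, 67.6 and 60.7. Both late groups lay above all controls. The log2 fold change at RMA-KR late was 0.99 ± 0.24 (SE; adjusted p = 0.0423, edgeR), higher in 3 of 3 libraries, and the call was kept in 7 of 23 alternatives (adjusted p 0.00288 to 0.189). It was lost without control 1 (0.141), control 2 (0.0529), control 3 (0.13), control 4 (0.0776), RMA-KR late 1 (0.158) or RMA-KR late 3 (0.173), and without the 4 libraries low in immediate early genes; each of these fits called 0 members by edgeR, with 4 to 9 at an unadjusted p under 0.05. Leaving out each of the same 6 single libraries with the same genes tested gave 0 members too (4 to 9 unadjusted). These unadjusted counts are given without the share of all genes in their own fits and are not read as a result about the members. With all libraries in the fit, 14.2% of all genes had an unadjusted p under 0.05 in this comparison. Its partner in the stalk, Mrpl12, was at 26.1, 42.7, 39.7 and 32.1 in controls and 44.5, 66.4 and 27 in RMA-KR late, groups that overlap, while RMA late gave 66.6, 78.2 and 50.6, all above the controls (log2 fold change 0.89 ± 0.28, adjusted p = 0.103).

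Against RMA-KR early, 52 of 77 members were above 0 at RMA-KR late (median 0.1, all genes -0.1; 0.11 without the 4 libraries low in immediate early genes). Leaving out 1 library moved this median to between 0.03 and 0.28, the lowest with RMA-KR late 2 left out and the highest with replicate 3 of that group left out, and by over 1.5 times also for RMA-KR early 1 (0.04), 2 (0.19) and 3 (0.2). None was called by edgeR, with 0.392% of all genes called in either direction, 4 members at an unadjusted p under 0.05 (5.19%, against 15% of all genes) and 0 called by DESeq2 (3.35% of all genes). Mrpl10 (0.68 ± 0.26, adjusted p = 0.27), Mrpl20 (0.67 ± 0.26, adjusted p = 0.275) and Mrpl48 (0.9 ± 0.4, adjusted p = 0.306) had the smallest p-values.

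At day 2, in RMA early, 27 were above and 50 below 0 against control (median -0.1, all genes -0.06), and in RMA-KR early 35 and 42 (median -0.04, or 0.01 with DESeq2's size factors; all genes 0). Without the 4 libraries low in immediate early genes these medians were -0.03 and 0.01, so that the sign at RMA-KR early was not kept. Leaving out 1 library gave -0.16 to -0.03 in RMA early, over 1.5 times away from -0.1 without control 1, 2 or 3 or RMA early 1, 2 or 3. In RMA-KR early it gave -0.16 (without RMA-KR early 2) to 0.08 (without RMA-KR early 1), with values above 0 also without control 2 or 3, 0 without control 4, and -0.12 and -0.06 without control 1 and RMA-KR early 3. No member was called by edgeR in RMA early, where 0% of all genes were called, nor in RMA-KR early, where 0.0994% were called in either direction; 3 members in each had an unadjusted p under 0.05 (3.9%, against 7.04% of all genes in RMA early and 8.71% in RMA-KR early), and DESeq2 called 0 in each (0.404% and 1.26% of all genes). The smallest p-values in RMA early were those of Mrpl16 (0.75 ± 0.29), Mrpl30 (-0.51 ± 0.23) and Mrpl15 (-0.57 ± 0.27), with adjusted p of 0.702, 0.704 and 0.705. In RMA-KR early they were those of Mrpl2 (0.72 ± 0.32), Mrpl13 (-0.69 ± 0.31) and Mrps6 (-1.55 ± 0.74), with adjusted p of 0.553, 0.555 and 0.567.

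The models at the same day 2 gave 38 members above 0 and 39 below for RMA against RMA-KR (median -0.01, or 0.02 with DESeq2's size factors and 0.01 without the 4 libraries low in immediate early genes; all genes -0.03). Leaving out 1 library gave -0.11 to 0.07, above 0 without RMA early 1 or RMA-KR early 2 or 3, and -0.03 or lower without RMA early 2 or 3 or RMA-KR early 1. No member was called by edgeR (0.339% of all genes in either direction), 8 had an unadjusted p under 0.05 (10.4%, against 12.3% of all genes) and DESeq2 called 0 (2.3% of all genes). The 3 smallest p-values were those of Mrpl37 (-0.88 ± 0.31, adjusted p = 0.29), Mrpl54 (-1.1 ± 0.4, adjusted p = 0.306) and Mrpl13 (0.88 ± 0.33, adjusted p = 0.327).

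At the late stage, day 9 of RMA against day 14 of RMA-KR, 68 of 77 members had the higher fitted level in RMA (median 0.47, all genes 0.06, quartiles of the members 0.19 and 0.59). Groups did not overlap for 12 of them, all higher in RMA (15.6%, against 5.18% of all genes tested). Here too the share among genes with a mean of at least 5 CPM is not given and may be higher. No member was called by edgeR and 0% of all genes were called; 6 members had an unadjusted p under 0.05 (7.79%, against 7.31% of all genes) and DESeq2 called 0 (0.269% of all genes). Mrpl20 (0.82 ± 0.26), Mrpl13 (0.85 ± 0.33) and Mrps14 (0.72 ± 0.29) came first, each with an adjusted p of 0.655. Mrps14, on the head of the small subunit, was at 110, 110 and 61.9 normalized CPM in RMA late and 58, 67.6 and 46 in RMA-KR late, so that RMA late 3 fell among the RMA-KR libraries. Without RMA late 2 the median was 0.34, without RMA-KR late 3 it was 0.25, and without the 4 libraries low in immediate early genes 0.44.

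The interaction of model and stage, which asks whether RMA and RMA-KR moved unequally between day 2 and the late stage, had a median of 0.41 over the members (all genes 0.12) with 62 above 0, and of 0.36 without the 4 libraries low in immediate early genes. It was 0.25 without RMA late 2 and 0.64 without RMA late 3. No member was called by edgeR, 0% of all genes were called, 9 members had an unadjusted p under 0.05 (11.7%, against 10.4% of all genes), and DESeq2 called 0 (0.831% of all genes). Mrpl30 (1.06 ± 0.34, adjusted p = 0.383), Mrps14 (1.05 ± 0.41) and Mrpl2 (1.22 ± 0.48), both with an adjusted p of 0.419, had the smallest p-values. Calls in 1 model and not in the other are therefore not shown to differ between them.

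**Figure D4:**
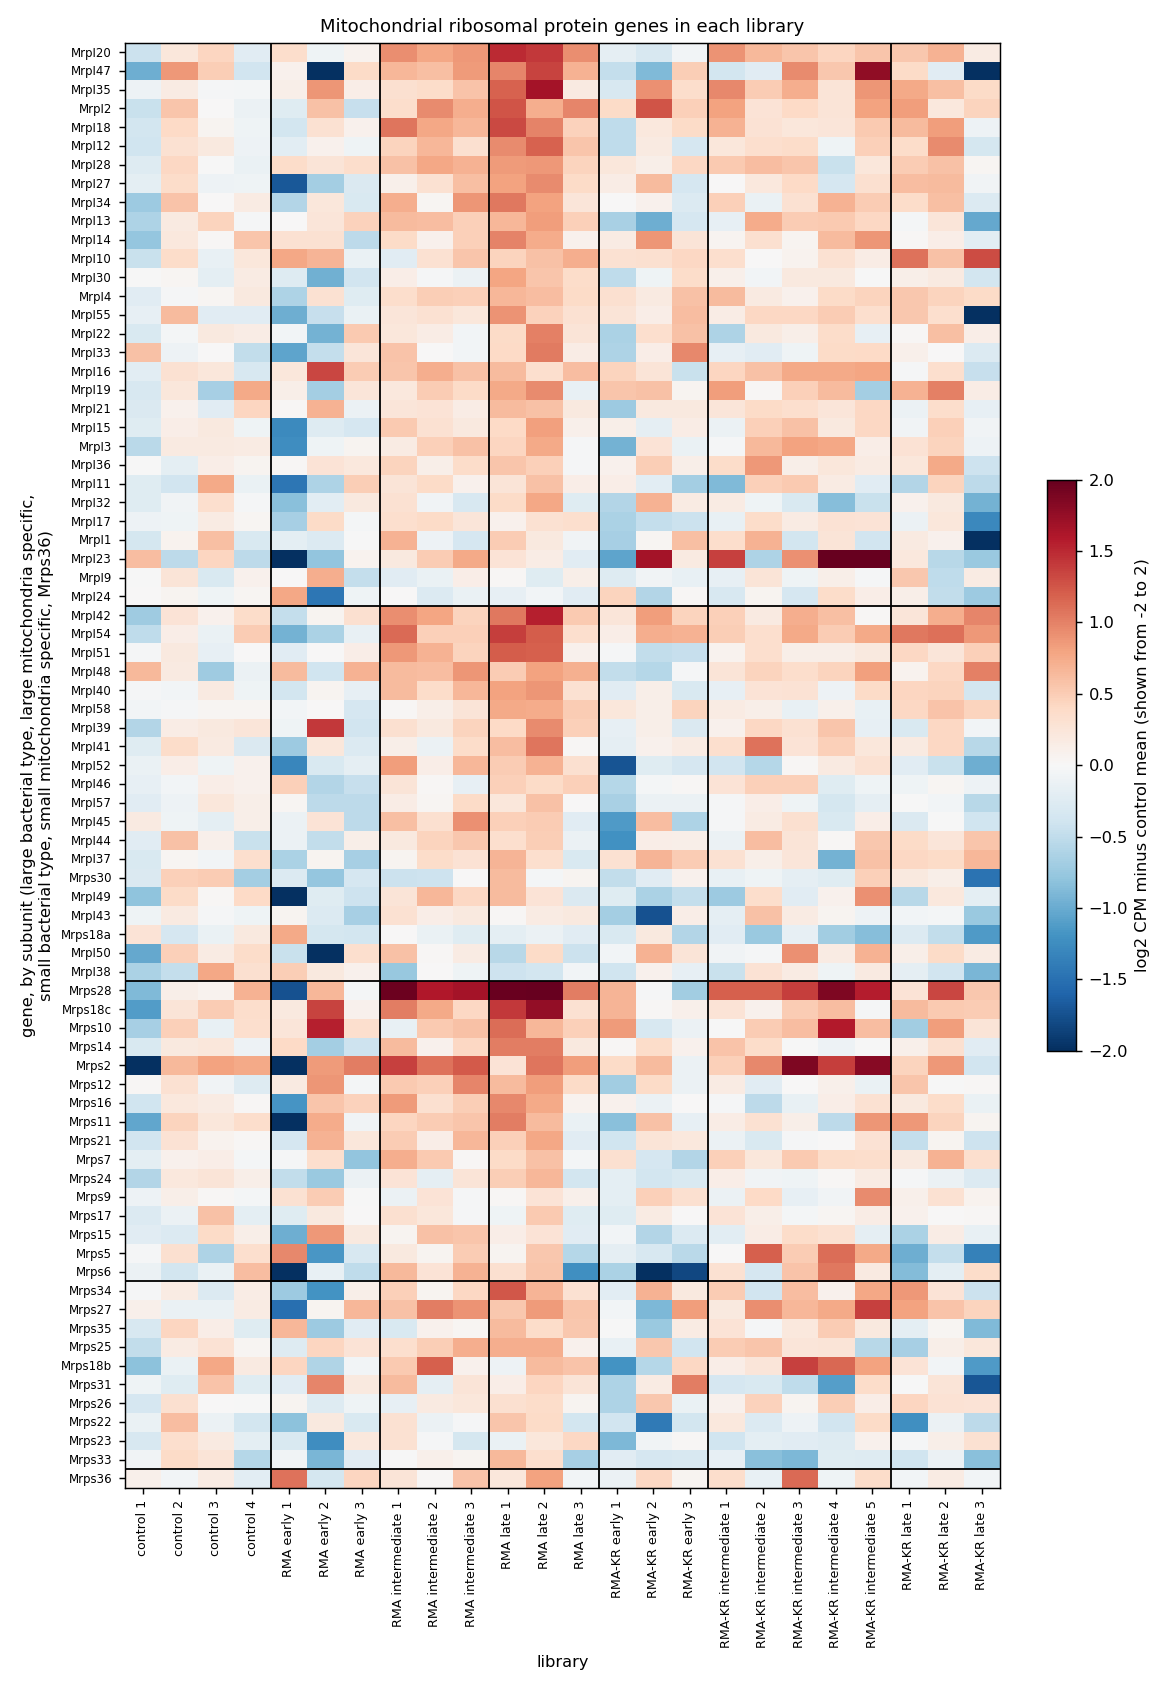
Log2 normalized CPM minus the control mean (color, shown from -2 to 2) of the 77 genes (rows, by subunit and class, sorted within a class by the RMA late mean) in the 24 libraries (columns). RMA late 1 and 2 have 70 and 72 of 77 genes above the control mean, RMA late 3 has 52, and control 1 has 9.

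Taken library by library, the median over members of log2 normalized CPM minus the control mean was -0.25, 0.18, 0.1 and 0.04 in controls, 0.33, 0.31 and 0.41 in RMA intermediate and 0.55, 0.66 and 0.18 in RMA late. It was 0.15, 0.26, 0.25, 0.24 and 0.31 in RMA-KR intermediate and 0.12, 0.27 and -0.15 in RMA-KR late. Control 1, the shallowest library, was the lowest of all 24, and RMA late 3 equalled the highest control. RMA early gave -0.23, 0.01 and -0.04 and RMA-KR early -0.21, 0.12 and 0.03.

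Names mislead for a few members. Mrps18b and Mrps18c, paralogs in the small subunit, had control means of 6.9 ± 3.17 and 7.69 ± 3.11 normalized CPM, while Mrps18a, their paralog in the large subunit, had 43.4 ± 8.62. At RMA late their log2 fold changes were 0.3 ± 0.6, 1.17 ± 0.5 and -0.2 ± 0.31, none called. Mrps30 was at 0.17 ± 0.35 and Mrps36, outside the ribosome, at 2.59, 2.31, 2.74 and 2.05 normalized CPM in controls and 2.84, 4.37 and 2.31 in RMA late (0.39 ± 0.74).

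Other genes of the same pathway were read from lists. Of 24 assembly factors of the mitochondrial ribosome, 1 was called higher at RMA late (2.14% of all genes) and none lower (median 0.03). It was Ddx28, an RNA helicase of large subunit assembly, at 74.3, 88.5, 104 and 57.1 normalized CPM in controls and 176, 128 and 163 in RMA late (log2 fold change 0.94 ± 0.25, adjusted p = 0.0377). Ddx28 was also called at RMA-KR late (1.07 ± 0.25, adjusted p = 0.0299; 219, 162 and 127 normalized CPM) and against RMA early (0.99 ± 0.27, adjusted p = 0.0463). With the filter applied again or the same genes tested, leaving out 1 library ended the RMA late call in 6 of 7 fits (adjusted p 0.066 to 0.214; kept without control 3) and the RMA-KR late call in 5 of 7 (0.0606 to 0.242; kept without control 3 or RMA-KR late 3). The call against RMA early was lost in 5 of 6 (0.0827 to 0.212; kept without RMA early 3).

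None of 14 mitochondrial translation factors, 20 tRNA charging enzymes or 5 ribosomal proteins with other names was called against control at the intermediate or late stage of either model; by unadjusted p under 0.05 these lists held 0, 1 and 0 genes at RMA late. The medians at RMA late were -0.09, 0.12 and 0.29. Tufm, the mitochondrial elongation factor Tu, was at 12.4, 15.6, 9.37 and 20.9 normalized CPM in controls and 15.2, 14.7 and 10.9 in RMA late (-0.1 ± 0.44). Gfm1, elongation factor G1, had a log2 fold change of -0.14 ± 0.26 at RMA late. In RMA-KR mice Gfm1 was at 33.6, 32 and 24.8 early and 88.8, 74.4 and 64.8 late, and this was called (1.34 ± 0.28, adjusted p = 0.0354). All 3 early values were below the 4 controls, at 39.7 to 88.6. The call held without RMA-KR late 3 (0.0428) and was lost without RMA-KR early 1, 2 or 3 or RMA-KR late 1 or 2 (0.0803 to 0.139). With the same genes tested it was lost without RMA-KR late 3 too (0.0513).

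Of 10 factors that transcribe and copy mitochondrial DNA, none was called against control at RMA late, with 8 of 10 below 0 (median -0.64, all genes -0.18) and 1 at an unadjusted p under 0.05. Polg, the catalytic subunit of the mitochondrial DNA polymerase, was at 85.6, 123, 140 and 147 normalized CPM in controls, 181, 186 and 105 in RMA early and 20.6, 72.1 and 47.6 in RMA late, and was lower at RMA late than at RMA early (-1.75 ± 0.46, adjusted p = 0.0403). All 3 late libraries were below all controls. The call held without RMA early 3 (0.0246) and was lost without RMA early 1 or 2 or RMA late 1, 2 or 3 (0.0519 to 0.241), also with the same genes tested. Polrmt (-0.7 ± 0.4) and Tfam (0.2 ± 0.27) were not called at RMA late. Neither was Tfb1m (0.11 ± 0.96), which is counted in the list of assembly factors and not here. Of 8 tested genes of mitochondrial DNA itself, with the RNA stability factor Lrpprc at -0.09 ± 0.29, none was called against control at RMA late (median -0.13, although their summed level was 1.14 times the control mean). Of these, mt-Nd5, a complex I subunit, was called at RMA-KR late against early (0.71 ± 0.16, adjusted p = 0.0486). It was at 680, 823 and 642 normalized CPM in RMA-KR early and 1040, 930 and 1540 in RMA-KR late. The controls were at 1140, 1010, 961 and 852. All RMA-KR early libraries were below all controls, so that low early values add to this difference. The call held without RMA-KR late 2 (0.0336). It was lost without RMA-KR early 1, 2 or 3 or RMA-KR late 1 or 3 (0.0531 to 0.234), also with the same genes tested.

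Among 9 nuclear regulators, Myc, which drives growth genes in activated lymphocytes, was called at RMA intermediate (1.2 ± 0.22, adjusted p = 0.00415), RMA late (0.84 ± 0.22, adjusted p = 0.0387) and RMA-KR late (1.13 ± 0.22, adjusted p = 0.0102). It was at 57.5, 91.5, 75 and 63 normalized CPM in controls, 144, 178 and 171 in RMA intermediate, 132, 156 and 98 in RMA late and 161, 153 and 158 in RMA-KR late, with no overlap with the controls. RMA-KR early, at 128, 101 and 102, lay above all controls too, while RMA early, at 65.1, 111 and 77.2, and RMA-KR intermediate, at 126, 138, 116, 119 and 74.2, overlapped them. The first and last calls held in 23 of 23 alternatives and the RMA late call in 11 of 23 (0.00422 to 0.309). The latter was kept without control 2 (0.0331) or RMA late 3 (0.0154) and lost without control 1, 3 or 4 or RMA late 1 or 2 (0.0741 to 0.309), also with the same genes tested. Nrf1 (0.16 ± 0.27) and Ppargc1b (-0.63 ± 1.83, at most 5.36 normalized CPM in controls and 4.52 in RMA late) were not called at RMA late.

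**Figure D5:**
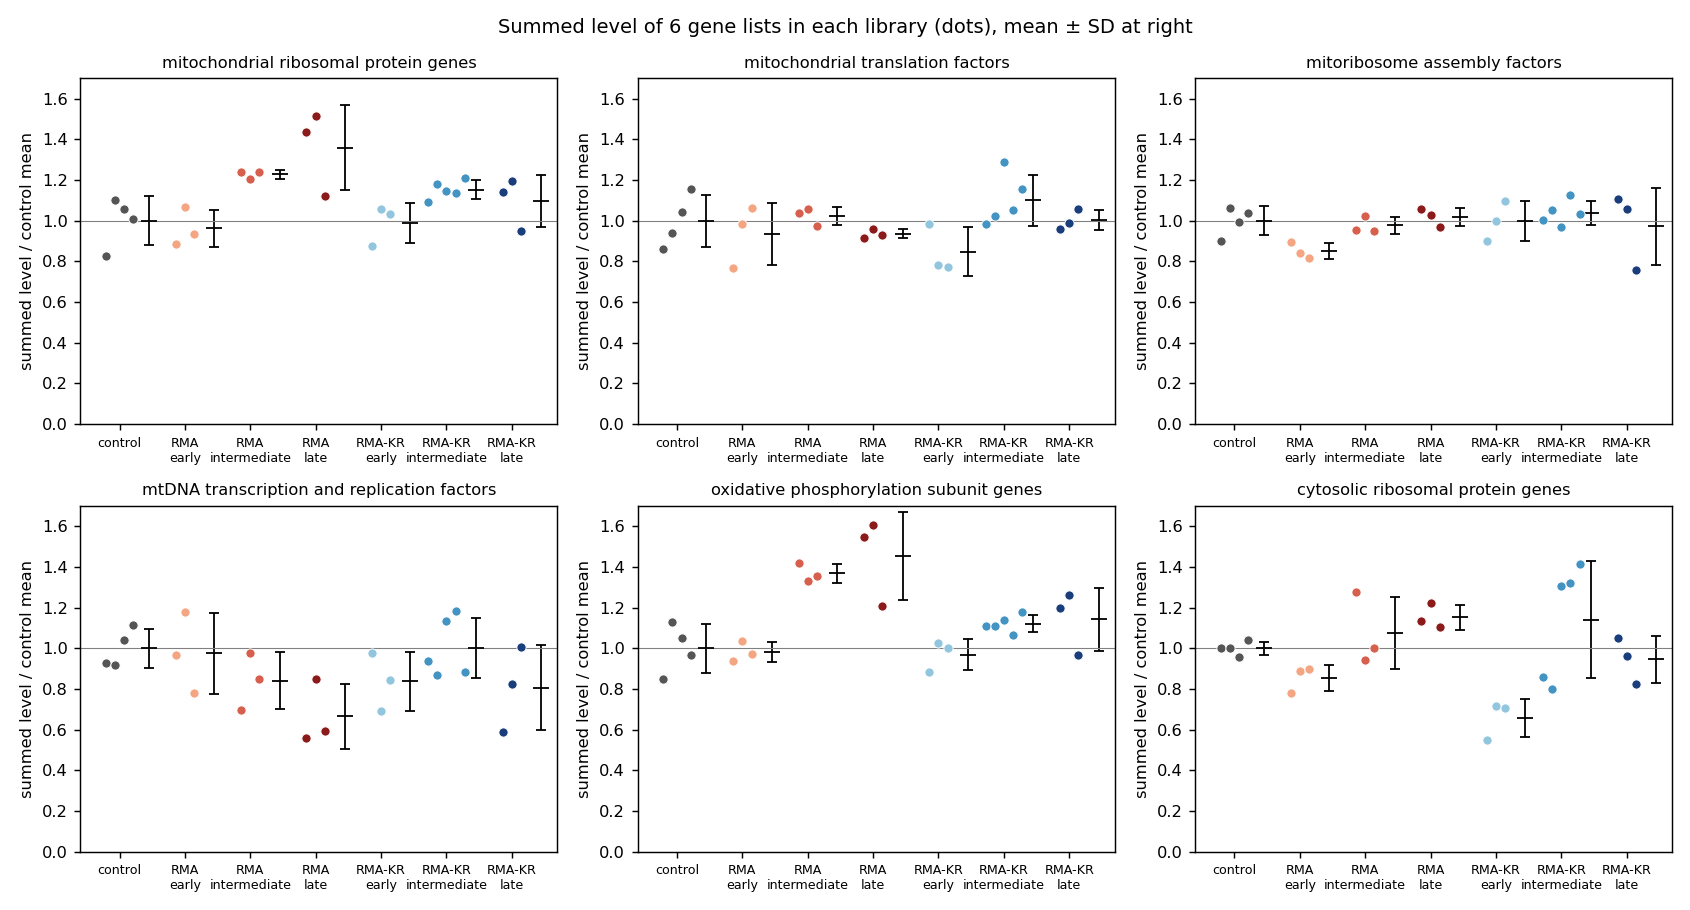
Summed level of 6 gene lists divided by its mean in controls (vertical axis, ratio) in each of the 24 libraries (dots) by group (horizontal axis), with the mean and SD of a group in black. At RMA late the group mean was 1.36 for mitochondrial ribosomal protein genes, 1.46 for oxidative phosphorylation subunits, 1.15 for cytosolic ribosomal proteins and 0.667 for mitochondrial DNA transcription and replication factors.

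Set beside the most similar gene families, the members had medians nearer to those of oxidative phosphorylation subunits than to those of cytosolic ribosomal proteins at both later RMA stages. At RMA late the median log2 fold change was 0.49 for members, 0.67 for 79 oxidative phosphorylation genes, of which 17 were called higher and none lower, and -0.1 for 80 cytosolic ribosomal protein genes, of which 3 were called higher and none lower. Of all genes tested, 2.14% were called higher at RMA late. At RMA intermediate the medians were 0.32, 0.44 and -0.02. For cytosolic ribosomal protein genes the summed level went the other way from these medians, at 1.15 and 1.07 times the control mean. At RMA-KR late they were 0.04, 0.09 and -0.39. These values stand side by side without a test between the families.

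Markers of other cells the sort could hold were low at most, apart from B cell genes. The 6 B cell markers, with Ighm the most abundant, summed to 267.4, 335.2, 238.2 and 398.6 normalized CPM in controls, 384.3, 335.1 and 334.2 in RMA late and 488.8, 580.5 and 407.4 in RMA-KR late. The T cell markers, 6 of 8 tested and Cd3g the most abundant, summed to 15.71, 13.7, 18.12 and 44.46 in controls and 52.8, 36.57 and 28.79 in RMA late. RMA is itself of T cell origin. Of the macrophage and monocyte markers 3 of 6 passed the filter, with Cd68 the most abundant. They summed to 18.11, 14.37, 8.743 and 10.8 in controls, 36.55, 33.22 and 50.86 in RMA late and 78.52, 70.41 and 36.23 in RMA-KR late. This sum was higher in all late libraries than in all controls. Most of it was Cd68, at 28.1, 24.8 and 47.8 in RMA late and 78, 59.4 and 36.2 in RMA-KR late. Csf1r was at most 3.09 in controls, at 2.92, 0 and 1.26 in RMA late and at 0 in all RMA-KR late libraries. Lyz2 was at most 2.22 in controls, at 5.5, 8.37 and 1.79 in RMA late and at 0.534, 11 and 0 in RMA-KR late. No marker of these 3 lists was called at RMA late against control, and no marker was at 0 in all libraries. Granulocyte, red blood cell and plasma cell markers passed the filter with 1 gene each (Ngp, Alas2 and Jchain) and summed to at most 4.838, 3.566 and 17.71 normalized CPM in any library. The part of such cells in the members' values was not tested.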

How the data were processed

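Polyadenylated RNA of sorted spleen NK cells was sequenced in 24 libraries. The deposited table gives raw read counts per gene, made by the authors with cutadapt 1.10, Bowtie2 2.2.8, STAR 2.5.3a (genome mm10, Ensembl 96) and HTSeq 0.6.1p1; the strand setting of the counting is not stated. The authors' 48 other columns of values per library and 29 columns of comparisons (DESeq2 1.16.1) were not used here. Genes were filtered with filterByExpr on the 7 groups and scaled by trimmed mean of M values, and 11 contrasts were tested with edgeR 4.0.16 (limma 3.58.1, R 4.3.3) by the robust quasi-likelihood F test with 1 mean per group. P-values were adjusted by Benjamini-Hochberg over all 17097 genes tested, with 0.05 as threshold; they measure the spread between these samples only. Each SE is the fold change divided by the square root of F. DESeq2 1.42.0, other filters and scalings, a replicate block and the omission of each library, with the filter applied again or the same genes tested, were tried. The model was tested on simulated data with planted changes far larger than the members' medians, so that this test does not cover changes as small as those. Total counts ran from 5138651 to 14863500 a library.

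Members named are those called or, where none was, the 3 with the smallest p in a comparison, the 5 highest and 5 lowest per length, and those whose name and place differ or that failed the filter, with Mrpl12; pathway genes named are those called and 9 listed whatever their value. Mrps17, Mrps25, Mrpl9, Mrpl24, Mrpl40 and Mrpl47 were named after their values were seen. The members and lists were chosen with earlier results of these data known. The name patterns of the cytosolic ribosomal and oxidative phosphorylation lists, the count of groups that do not overlap, the 5 CPM reference, the 20% limit on low values, the promoter share among genes tested and the printing of 150 bases for called members only were chosen after the data were seen.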

Additional observations from a re-analysis of the deposited data

Results flagged for a closer look

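Of 60 sets of values from the control and RMA-KR intermediate groups tested for a library far from the others of its group, 2 had one. Chance gives about 1 in 20. The groups of 3 libraries were not tested in this way. Mrps30, which encodes a large subunit protein despite its name, was at 59.3 normalized CPM in RMA-KR intermediate 5, where the other 4 libraries of that group lay between 35.9 and 40. Mrps31, a small subunit gene, was at 25 normalized CPM in control 3, where the other 3 controls lay between 14.1 and 15.9. Neither gene was called in a comparison with those groups.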

How the results depend on the processing

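In the 3 comparisons with a member called, 14 of 67 counts recomputed under another setting or without a library were within 1.5 times the reported count, so that these counts depend on the processing and on single libraries. Over all 11 comparisons, 257 of 259 medians moved by less than the spread between replicates. Single genes did not reverse in any of 373 values, and 176 of these lost the call.

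Without a filter on low counts, edgeR called 0 members at RMA late against control, RMA-KR late against control and RMA late against RMA early. At an unadjusted p under 0.05 there were 10, 1 and 19. In the main fits 14%, 14.2% and 17.2% of all genes had such a p in these comparisons. Unadjusted counts in this section are given without the share of all genes in their own fits. They are not read as a result about the members. With a stricter filter (5 CPM), 1 was called at RMA intermediate (1.33% of members, against 5.78% of all genes) and 5 at RMA late (6.67% against 6.62%). DESeq2 called 4 at RMA intermediate, 14 at RMA late, 3 at RMA-KR late and 14 at RMA late against early, and the same counts with shrunken fold changes; over all genes these were 5.49%, 6.05%, 3.89% and 7.72%, so that the share of members at RMA intermediate (5.19%) and RMA-KR late (3.9%) was near that of all genes. With only the compared groups in the fit, 2 were called at RMA intermediate (2.6% against 10.2% of all genes), 0 at RMA-KR late and 0 at RMA late against early (for these 2, 5 and 12 at an unadjusted p under 0.05). Without the 4 libraries low in immediate early genes, an alternative chosen after seeing the data, 1 was called at RMA late, 0 at RMA-KR late (7 unadjusted) and 3 at RMA late against early. The cause of these changes was not tested. Counts with DESeq2's size factors, or with proliferation genes left out (also chosen after seeing the data), were within 1.5 times.

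Leaving out 1 library gave 1 to 7 members at RMA late, 0 to 1 at RMA-KR late and 0 to 11 at RMA late against early, and 0 in each of the other comparisons. With the genes tested kept the same, an alternative chosen after seeing the data, these ranges were 1 to 7, 0 to 1 and 0 to 11; with the filter applied again the last was 0 to 8. The median of the interaction was 0.25 to 0.64, with 0.62 and 0.64 without RMA late 3 and 0.25 without RMA late 2. Medians at RMA late (0.31 to 0.62) and RMA intermediate (0.23 to 0.4) kept their sign, while that at RMA-KR late (-0.08 to 0.19) did not. The median at RMA early was -0.16 to -0.03, at RMA-KR early -0.16 to 0.08 and at RMA-KR late against early 0.03 to 0.28. Of the summed levels recomputed, 68 moved by less than the spread between replicates and 4, all of RMA intermediate, by more (to between 2994 and 3153).

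With replicate number as a replicate block, 1 member was called at RMA late (1.3% against 1.69% of all genes), 0 at RMA-KR late (5 unadjusted) and 3 at RMA late against early (3.9% against 2.19%). Labels share numbers only, and correlations of paired residuals ran from -0.12 to 0.2, with no comparison above 0.1 in all pairs, so no pairing was used.

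Groups of 3 to 5 libraries and biological coefficients of variation of 0.174 to 0.833 for the members (median 0.329) limit what a single gene can show. Mrpl53 could not be tested. Counts of members that share exons or have pseudogene copies are uncertain. Day and tumor cannot be told apart in the late comparison between models.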
